A study of Mus musculus with 12 samples.

Results

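The Igf2bp, Lin28 and Hmga genes are 7 of the 21938 protein-coding genes that GENCODE release M21 places on the assembled mouse chromosomes: Igf2bp1, Igf2bp2, Igf2bp3, Lin28a, Lin28b, Hmga1 and Hmga2. Each was described by the MOF peaks that overlapped its gene body or lay within 10 kb of any of its annotated start sites. The genes were chosen by the positions and fold enrichments of those peaks, so the peak counts and enrichments below are a description and carry no test. MOF (also named KAT8) is the lysine acetyltransferase that acetylates histone H4 at lysine 16, and its genomic positions were read by chromatin immunoprecipitation and sequencing (ChIP-seq) of visceral white adipose tissue. The mice were C57BL/6 animals 8 weeks old on a standard diet, either with both copies of the gene (Mof+/+) or with a single functional copy in all tissues (Mof+/-). The labels give 2 MOF ChIP libraries per genotype beside H3 ChIP and input libraries, 12 in all. The reporting summary also gives 2 animals per genotype, littermates, while the series' own design text counts 2 control and 3 Mof+/- animals. The MOF antibody in the labels is not among those that the reporting summary lists for ChIP-seq.

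The 3 families are known as oncofetal genes, being abundant in the embryo, low in most adult tissues and often high again in tumours. LIN28A and LIN28B bind precursors of the let-7 microRNAs and block their maturation, and let-7 in turn represses the messenger RNAs of all 3 families. IGF2BP proteins bind and stabilise messenger RNAs, among them m6A-methylated ones and that of Igf2, and HMGA proteins bend AT-rich DNA through AT-hooks. HMGA2 is also known for its part in the growth of adipocyte precursors.

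Each genotype had 1 peak list without values per replicate, and differences between the genotypes therefore have no error from animal to animal. Mof+/+ tissue gave 19773 peaks and Mof+/- tissue 731, of which 19753 and 716 lay on the assembled chromosomes. Ranks of peaks are over all of a list, and overlaps are over the assembled chromosomes. The input background was never below 3.52 fragments in the Mof+/+ list or 2.26 in the Mof+/- list, and the median summit rested on 16 and 14 fragments. Of 8 adipocyte markers, 4 had a Mof+/+ peak within 1 kb of a start site, led by Plin1 (fold enrichment 3.54), Cebpa (3.10) and Lpl (2.88). Cidec, Fabp4, Pparg and Lep had none that near, and Lep had none in its window. Of 5 markers each, 4 of B cells, 4 of T cells, 1 of macrophages, 1 of endothelial cells and 2 of progenitors or mesothelium had such a peak, beside 41.0% of all protein-coding genes. The highest such fold enrichments were 7.30 at Cd79b of B cells and 5.75 at Cd3d of T cells. They were 4.87 at Cd68 of macrophages, 5.53 at Pecam1 of endothelial cells and 5.53 at Pdgfra of progenitors. In Mof+/- tissue, Pax5 of the B cell markers (fold enrichment 3.99) and Pdgfra of the progenitor markers (5.53) had a peak within 1 kb, and the adipocyte, T cell, macrophage and endothelial markers had 0. The part of each cell type in the peaks below was not tested. In whole tissue, fewer cells that carry MOF at a site and less MOF per cell cannot be told apart.

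MOF peaks were found at 6 of the 7 genes in Mof+/+ tissue, where 48.3% of all protein-coding genes had one. In Mof+/- tissue they were found at 2 of the 7, where 2.38% of all protein-coding genes had one. Within 1 kb of a start site the counts were 3 genes in Mof+/+ (Igf2bp1, Igf2bp3 and Hmga1), beside 41.0% of all genes, and 2 genes in Mof+/- (Igf2bp1 and Igf2bp3), beside 1.32%. In all there were 13 Mof+/+ peaks and 5 Mof+/- peaks at the 7 genes. Of the 13 Mof+/+ peaks, 3 overlapped a Mof+/- peak, against 2.44% of the 19753 Mof+/+ peaks on the assembled chromosomes. Since peak values chose these genes, nothing is read from the distance between the counts and those shares. By gene length, the share with a Mof+/+ peak was 46.2% under 40 kb, 58.8% from 40 to under 100 kb and 47.1% from 100 kb, and that with a Mof+/- peak was 2.48%, 2.13% and 2.13%.

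**Figure D1:**
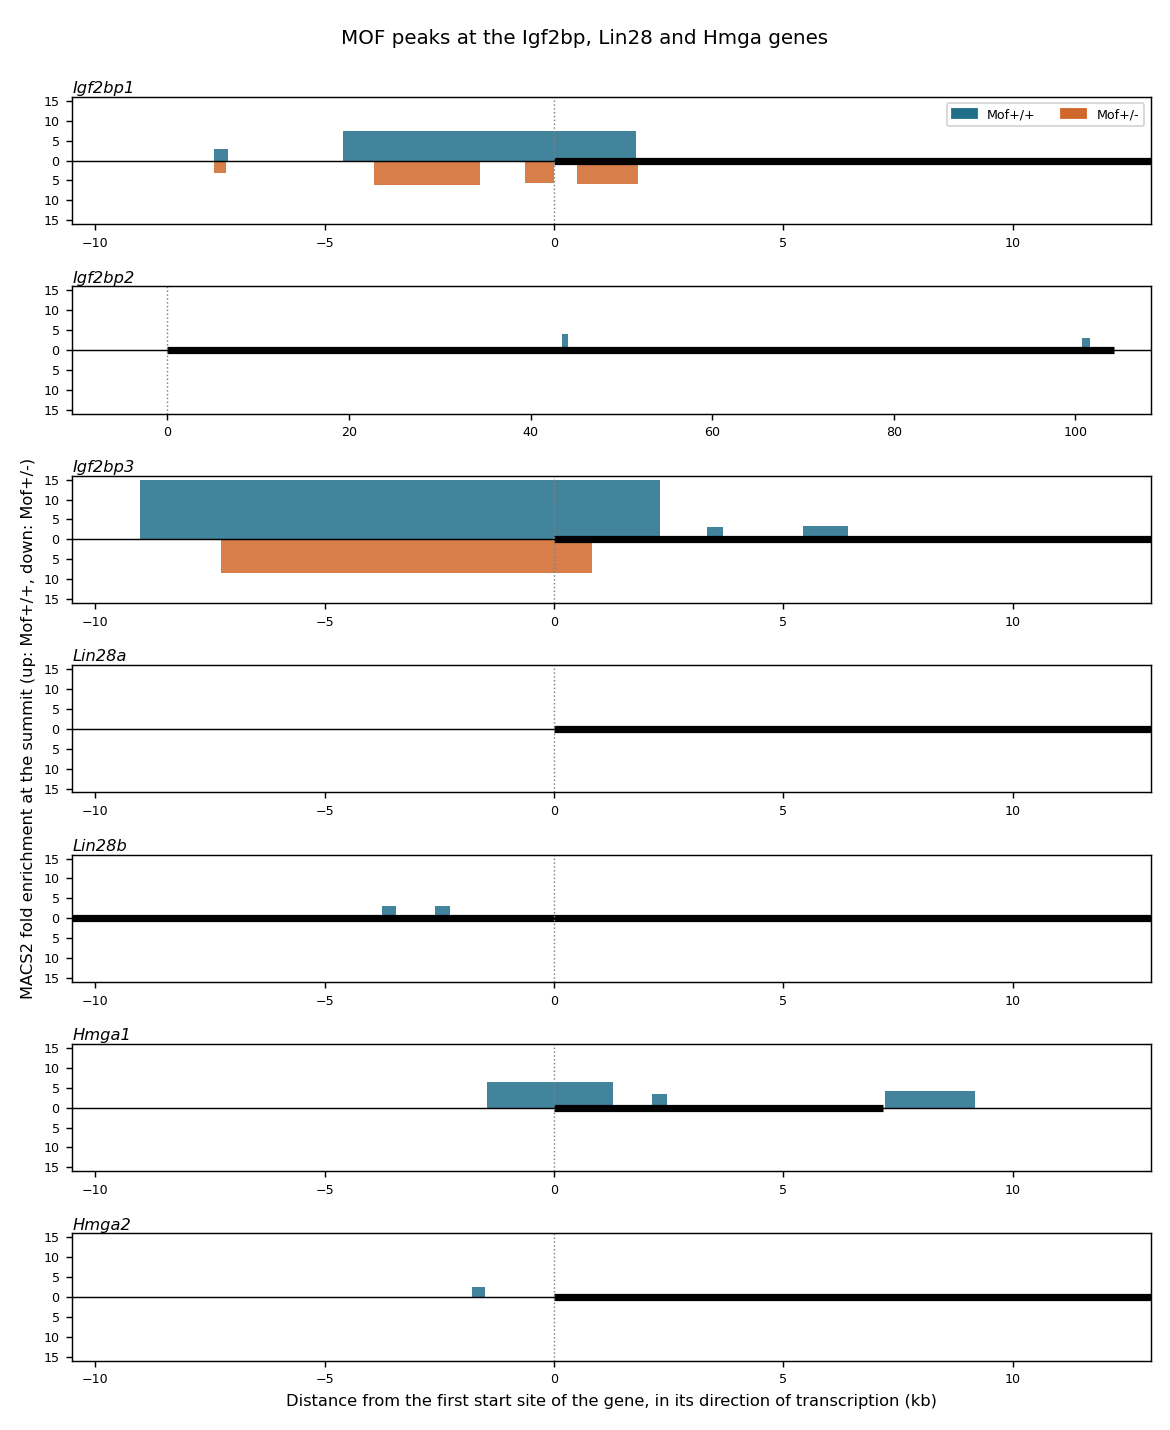
MOF peaks at each gene, drawn to scale by distance from its first start site (for Lin28b, the first protein-coding start) in kb along the direction of transcription, with fold enrichment at the summit upward for Mof+/+ and downward for Mof+/-; the black bar is the gene. Wide peaks reach far upstream of Igf2bp1 and Igf2bp3 in both genotypes, Hmga1 has 3 Mof+/+ peaks only, and Lin28a is empty.

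The sequences below are the 101 bp centred on Mof+/+ summits, shown because they span the range of enrichment at these genes, from the strongest peak (Igf2bp3) and the next strongest (Igf2bp1) to the weakest (Hmga2). They were read from GRCm38 on the minus strand, on which all 3 genes lie, and capitals mark CpG dinucleotides. The windows lie at chr6:49218226-49218326, chr11:96008047-96008147 and chr10:120478030-120478130, and all 3 summits are intergenic and upstream of the gene.
Igf2bp3 summit: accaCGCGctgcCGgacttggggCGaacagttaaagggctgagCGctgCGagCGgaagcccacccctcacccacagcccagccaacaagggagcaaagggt
Igf2bp1 summit: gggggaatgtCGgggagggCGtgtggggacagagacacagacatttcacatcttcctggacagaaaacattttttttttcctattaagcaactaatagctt
Hmga2 summit: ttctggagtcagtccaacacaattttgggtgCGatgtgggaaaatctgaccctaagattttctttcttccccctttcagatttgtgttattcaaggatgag
The Igf2bp3 window held 7 CpG dinucleotides, the Igf2bp1 window 2 and the Hmga2 window 1.

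Igf2bp3 (chr6:49085223-49214957, minus strand, 130 kb) encodes an RNA-binding protein of fetal tissues. It carried the widest and strongest MOF domain of the group in both genotypes. The Mof+/+ peak ran over 11337 bp, chr6:49212651-49223987, from 9030 bp upstream of the start to 2306 bp inside the gene. Its fold enrichment of 14.9 was the second value of the whole list (rank 2 of 19773), with rank 6 by width and rank 3 by p-value (−log10 p 64.3, −log10 q 58.0). The summit lay 3319 bp upstream of the start and rested on 72 fragments (95% Poisson interval 56.3 to 90.7) over an input background of 3.89.

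In Mof+/- tissue the same place held a peak of 8086 bp, chr6:49214120-49222205, which was the widest of that list. All of it (100%) lay inside the Mof+/+ peak and it covered 71.3% of that peak. Fold enrichment was 8.36 (rank 6 of 731, −log10 p 28.5), from 43 fragments (31.1 to 57.9) over a background of 4.26. The 2 summits stood 306 bp apart. Fragments over background came to 18.5 (14.5 to 23.3) in Mof+/+ and 10.1 (7.30 to 13.6) in Mof+/-. These intervals cover counting error within each list only and give no test between the genotypes. Inside the gene, Mof+/+ tissue had 2 further peaks in introns, 352 bp wide with fold enrichment 3.04 and 969 bp wide with fold enrichment 3.29, and neither overlapped a Mof+/- peak.

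Igf2bp1 (chr11:95957163-96005940, minus strand, 48.8 kb) encodes the family member best known for binding the Myc and Actb messenger RNAs. A Mof+/+ peak of 6385 bp, chr11:96004145-96010529, reached from 4589 bp upstream of the start to 1795 bp inside the gene. Fold enrichment was 7.34 (rank 119), from 37 fragments (26.1 to 51.0) over a background of 4.17. In the Mof+/- list the same stretch was called as 3 peaks. They were 1339 bp in an intron (fold enrichment 5.82, 19 fragments), 615 bp just upstream of the start (5.52, 17 fragments) and 2322 bp further upstream (6.23, 28 fragments). The shares of these peaks inside the Mof+/+ peak were 97.2%, 100% and 100%, and together with the fourth peak described next they covered 4539 bp against 6700 bp in Mof+/+.

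The strongest Mof+/- summit at Igf2bp1 lay 5 bp from the Mof+/+ summit, 2152 and 2157 bp upstream of the start. Fragments over background there were 8.86 (6.24 to 12.2) in Mof+/+ and 7.66 (5.09 to 11.1) in Mof+/-. About 7 kb upstream a small peak was found in both lists, with fold enrichment 2.90 from 14 fragments in Mof+/+ and 3.21 from 12 fragments in Mof+/-, and summits 56 bp apart. Of the 523 protein-coding genes with any Mof+/- peak, 50 had at least 4, as Igf2bp1 did, with each called peak counted separately. The antisense noncoding gene Gm29202 and the unclassified transcript Gm37179 start within the same domain, so the peaks cannot be given to Igf2bp1 alone.

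Igf2bp2 (chr16:22059009-22163299, minus strand, 104 kb) is the family member that stays on in adult tissues. It had no peak within 1 kb of a start site in either genotype. Its 2 Mof+/+ peaks lay deep in the gene, 43959 bp from the start in an intron (592 bp, fold enrichment 3.94, 19 fragments) and 101429 bp from the start in coding sequence (816 bp, fold enrichment 3.09, 15 fragments). Internal start sites of shorter transcripts were 1421 and 1160 bp from these peaks. The nearest Mof+/- peak was 260133 bp from any of its start sites.

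Hmga1 (chr17:27556497-27563674, plus strand, 7.18 kb) encodes the more widely expressed of the AT-hook proteins. A Mof+/+ peak of 2754 bp, chr17:27555035-27557788, covered its start, with the summit 400 bp downstream in untranslated sequence. Fold enrichment was 6.42 (rank 337), from 28 fragments (18.6 to 40.5) over a background of 3.52. The start of the antisense transcript Gm49774 lies under the same peak. An intron held another Mof+/+ peak (316 bp, fold enrichment 3.54), and the last (1962 bp, fold enrichment 4.20) covered the start of the downstream gene AI413582, 7017 bp from the nearest Hmga1 start. No Mof+/- peak was found, and the nearest was 706244 bp away.

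Hmga2 (chr10:120361275-120476469, minus strand, 115 kb) had 1 weak Mof+/+ peak of 280 bp, chr10:120477979-120478258, with its summit 1611 bp upstream of the start. Fold enrichment was 2.65 (rank 17561 of 19773), from 11 fragments (5.49 to 19.7) over 3.52, and the −log10 q was 1.15, close to the limit of the list at a q-value of 0.1. Its closest Mof+/- peak was 6693510 bp away. Fragments over background were 7.95 (5.28 to 11.5) at Hmga1 and 3.12 (1.56 to 5.59) at Hmga2, and the ends of these intervals overlapped.

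Lin28a (chr4:134003330-134018841, minus strand, 15.5 kb) had no peak in either list. The nearest Mof+/+ peak was 40485 bp from its start sites and the nearest Mof+/- peak 145772 bp. Lin28b (chr10:45376620-45486395, minus strand, 110 kb) had 2 narrow Mof+/+ peaks, 328 bp and 321 bp wide, with summits 2325 and 3491 bp upstream of its first protein-coding start and within introns of longer noncoding transcripts. Their fold enrichments were 2.98 and 3.10, each from 13 fragments (6.92 to 22.2). Both Lin28 genes were without a Mof+/- peak, the nearest to Lin28b being 941539 bp away. An absent peak means that no peak passed the authors' threshold at this depth and not that MOF was absent.

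**Figure D2:**
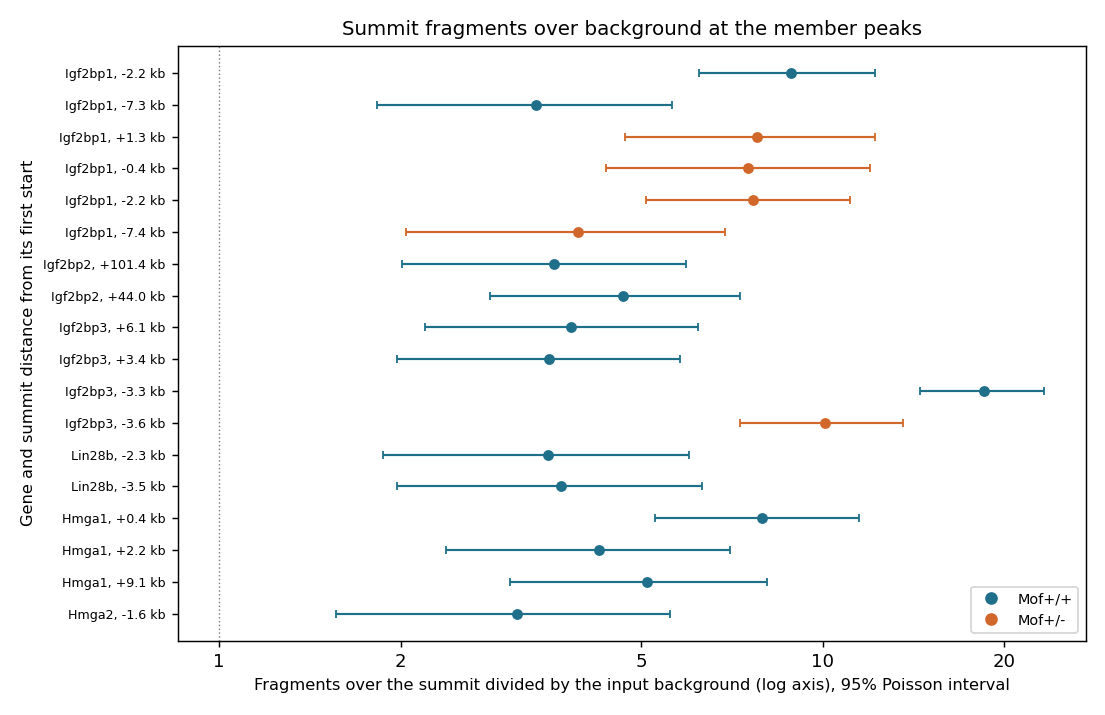
Fragments over the summit divided by the local input background for each of the 18 peaks at these genes (log axis, points with exact 95% Poisson intervals; the label gives the summit's distance from the first start). The upstream Igf2bp3 peak stands highest in both genotypes, at 18.5 and 10.1.

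The fragments and backgrounds were solved from the deposited fold enrichment and p-value, which hold a pseudocount of 1 that makes fold enrichment lower than the plain ratio. Across the 13 Mof+/+ peaks, 3 had over 20 fragments (72, 37 and 28, at Igf2bp3, Igf2bp1 and Hmga1) and the other peaks had 11 to 19. Hmga1 was the strongest member without a Mof+/- peak. Among all Mof+/+ peaks at or above its fold enrichment, 101 of 403 (25.1%) overlapped a Mof+/- peak and 302 (74.9%) did not. At or above the Igf2bp1 value, 43 of 120 (35.8%) overlapped one, and the 2 peaks at or above the Igf2bp3 value both did. By width, 142 of 597 peaks (23.8%) at least as wide as that of Hmga1 overlapped one, as did 31 of 67 (46.3%) at least as wide as that of Igf2bp1 and 6 of 6 at least as wide as that of Igf2bp3. Each of these sets, by fold enrichment or by width, includes the peak of the named gene itself.

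The Mof+/+ peaks were also scaled to a common input background, which does not match the depth of the ChIP libraries. At the lowest Mof+/- background, 11 fragments were needed to reach the p-value of the least significant Mof+/- peak. Scaled to that background, 4 of the 13 Mof+/+ peaks would keep at least 11 fragments: 41.9 at Igf2bp3, 20.0 at Igf2bp1, 18.0 at the Hmga1 start and 11.6 at the AI413582 start beside Hmga1. Of these 4, 2 overlapped a Mof+/- peak. The weaker peaks at Igf2bp2, Lin28b and Hmga2 came to between 7.07 and 10.6 fragments on this scale. Of the 9 peaks below 11 fragments, 1 overlapped a Mof+/- peak, the small one upstream of Igf2bp1. Among the list's peaks with solved fragments, 282 of 5050 (5.58%) that kept 11 fragments overlapped a Mof+/- peak, against 185 of 14689 (1.26%) that did not keep them. The other 14 peaks had no solution, and all 14 overlapped a Mof+/- peak.

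**Figure D3:**
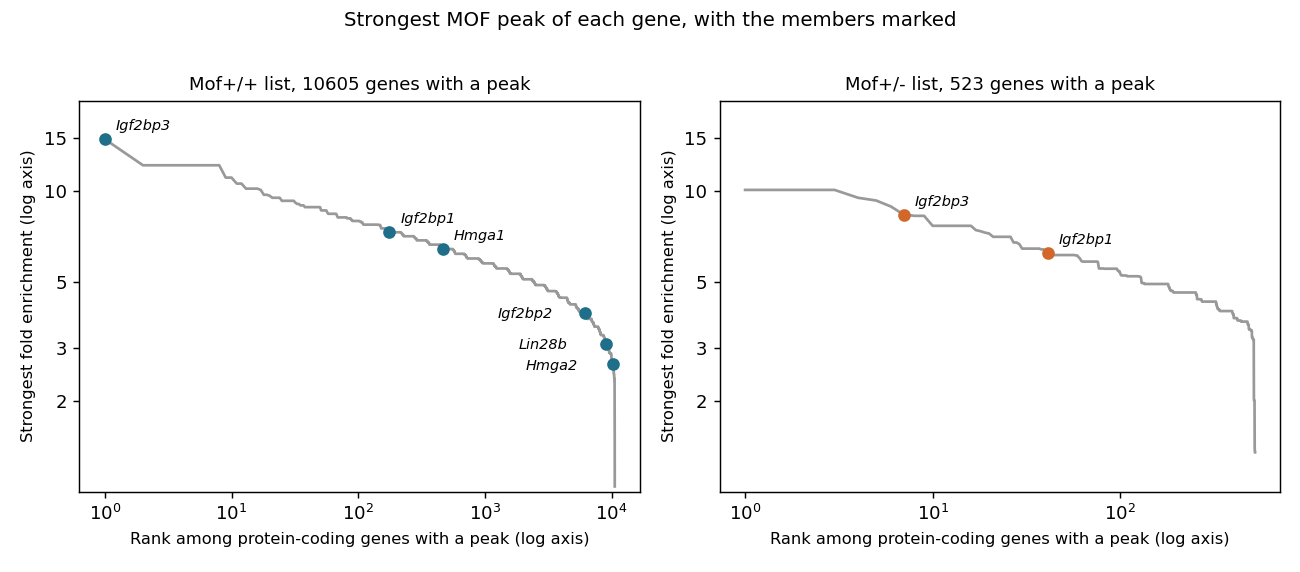
Strongest fold enrichment of each protein-coding gene in its window against its rank (both axes log), for 10605 genes with a Mof+/+ peak and 523 with a Mof+/- peak, with the 7 genes marked where they had a peak. Igf2bp3 is at rank 1 and rank 7, Igf2bp1 at 176 and 41.

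Ranked by the strongest peak of each protein-coding gene, Igf2bp3 was first in Mof+/+ and at rank 7 in Mof+/-, and Igf2bp1 was at rank 176 and 41. Hmga1 stood at rank 469, Igf2bp2 at 6133, Lin28b at 8984 and Hmga2 at 10182 of the 10605 genes with a Mof+/+ peak. Neighbours in this order below Hmga1 rested on 11 to 19 fragments at their strongest summits, and their intervals overlapped, so the order among Igf2bp2, Lin28b and Hmga2 is not resolved. Over the 509 genes with a peak in both lists, the ratio of the strongest Mof+/+ to the strongest Mof+/- fold enrichment had a median of 1.13 (interquartile range 0.893 to 1.40). The ratio was 1.79 at Igf2bp3, which 43 genes exceeded, and 1.18 at Igf2bp1, which 224 genes exceeded. Only genes whose Mof+/- peak passed the threshold enter this ratio, so it does not measure how much enrichment was kept over all genes. The least significant peak had a −log10 p of 4.72 in Mof+/- and 3.25 in Mof+/+. The strongest peaks of the lists also need not lie at the same place.

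Genes with the most similar pair of fold enrichments were found by the distance between the log2 values over both lists. For Igf2bp1 they were Spag6 (7.15 in Mof+/+ and 6.13 in Mof+/-, distance 0.04), Nkx2-3 (7.52 and 6.11, distance 0.04) and Dmrt3 (7.08 and 6.13, distance 0.06). Nkx2-3 encodes a homeobox factor, and Dmrt3 a DM-domain factor known from spinal cord development. No gene was as close to Igf2bp3, whose nearest, at a distance of 0.40, were Bub3, Fgfr2 and Hmx2 (each 12.2 and 10.1), which adjoin or overlap each other on chromosome 7 in this annotation and share the same peaks.

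**Figure D4:**
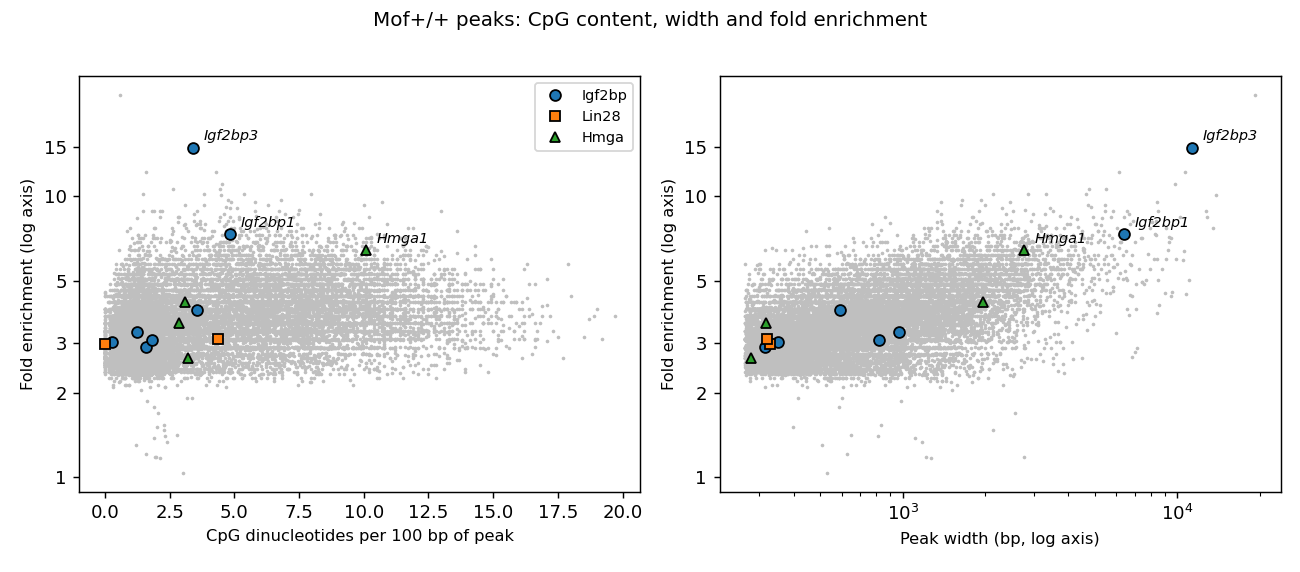
Fold enrichment of every Mof+/+ peak (log axis) against its CpG dinucleotides per 100 bp (left) and its width in bp (right, log axis), with the 13 peaks at the Igf2bp, Lin28 and Hmga genes marked by family and the remaining peaks in grey. The Igf2bp3 peak is high and wide at 3.40 CpG per 100 bp, and the Hmga1 start peak is the most CpG-rich of the 13 at 10.1.

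Among the 13 Mof+/+ peaks, the 6 with the highest fold enrichment held 2.85 to 10.1 CpG dinucleotides per 100 bp, and 5 of the other 7 held 0 to 1.84. The peak at the Hmga1 start, with 10.1, held more than 92.7% of Mof+/+ peaks, and the median of the list was 2.45. The stronger domains at Igf2bp1 and Igf2bp3 held 4.82 and 3.40 per 100 bp. At Lin28b one peak held 0 and the other 4.36 per 100 bp. In the 1001 bp around the first start the counts were 120 CpG dinucleotides at Igf2bp2, 110 at Hmga1, 82 at Igf2bp1, 76 at Igf2bp3, 68 at Hmga2, 34 at Lin28a and 19 at Lin28b. Igf2bp2 thus had the most CpG-rich start of the 7 and no promoter peak. Chromatin was cut with an enzyme specific for RGCY, where R stands for a purine and Y for a pyrimidine, and the density of this site was 18.3 per kb in the Igf2bp3 domain, 19.3 in that of Igf2bp1 and 30.9 at the Hmga1 start, beside a median of 21.2 in the list.

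The 100 bases just upstream of the first coding start are shown for genes with a promoter peak (Hmga1, Igf2bp3) and without one (Igf2bp2, Lin28a), since the CpG content differs so much among them. The sequences are from the RefSeq promoter table of GRCm38, in the direction of the gene, at chr17:27556397-27556496 (plus strand), chr6:49214958-49215057, chr16:22163300-22163399 and chr4:134018842-134018941 (minus strand), with CpG dinucleotides in capitals.
Hmga1 promoter: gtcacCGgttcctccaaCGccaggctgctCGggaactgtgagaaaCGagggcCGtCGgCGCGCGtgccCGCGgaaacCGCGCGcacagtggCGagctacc
Igf2bp3 promoter: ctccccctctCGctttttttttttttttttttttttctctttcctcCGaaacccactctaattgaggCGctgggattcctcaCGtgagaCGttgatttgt
Igf2bp2 promoter: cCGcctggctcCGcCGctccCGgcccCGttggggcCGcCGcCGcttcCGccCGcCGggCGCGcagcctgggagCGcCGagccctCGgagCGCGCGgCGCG
Lin28a promoter: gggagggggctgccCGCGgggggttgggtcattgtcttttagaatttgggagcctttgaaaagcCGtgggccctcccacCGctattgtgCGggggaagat
These stretches hold 15, 5, 21 and 5 CpG dinucleotides.

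Of the 7 genes, 6 had an entry in that table, which gives 300 bases per promoter, and Igf2bp1 did not. The GC box GGGCGG, read on both strands, was found in 4 of the 6 (Igf2bp2, Lin28a, Hmga1 and Hmga2) and in 35.7% of all 32851 promoters. The CCAAT box was found in 2 (Igf2bp3 and Lin28b), beside 37.4% of all promoters, and the E-box CACGTG in the same 2, beside 7.15%. The letters TATAAA were in 0 of the 6, beside 13.6%. These matches describe the letters alone.

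The 3 families are known let-7 targets, so a let-7 match in their messenger RNAs is part of what groups them and is shown as a description, not as independent evidence. The letters CTACCTC, which pair with bases 2 to 8 of let-7, occurred in the longest annotated 3′ untranslated region of all 7 genes, against 9.02% of the 21021 protein-coding genes with such a region. There were 4 matches each in Igf2bp1, Lin28b and Hmga2, a number that 12 genes (0.0571%) reached. Lin28a had 2, and Igf2bp2, Igf2bp3 and Hmga1 had 1 each. These regions were longer than the median of 961 bases, from 1183 bases in Hmga1 to 6337 in Igf2bp1, and a longer region has more room for a match. The match closest to the stop codon is shown for the 3 genes with 4, on the strand of the gene, with the matching letters in capitals. They lie at chr11:95961778-95961800, chr10:45381022-45381044 and chr10:120364224-120364246, all on the minus strand of GRCm38. Below them stand the mature let-7 RNAs of the 3 let-7 genes with a Mof+/+ peak within 1 kb of the annotated start, with the seed in capitals.
Igf2bp1 site: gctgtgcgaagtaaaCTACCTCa
Lin28b site: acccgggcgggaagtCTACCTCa
Hmga2 site: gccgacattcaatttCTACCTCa
let-7b-5p: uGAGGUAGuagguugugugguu
let-7c-5p: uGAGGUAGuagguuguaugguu
let-7i-5p: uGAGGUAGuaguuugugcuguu
The seed was the same in every let-7 and miR-98 sequence of the RefSeq table. The study's own mRNA sequencing of visceral white adipose tissue was not used here, so neither RNA nor protein values of these genes are given.

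MOF at the genes around this circuit was counted on 6 lists of 68 genes, of which 45 (66.2%) had a Mof+/+ promoter peak, beside 41.0% of all protein-coding genes, and 1 had a Mof+/- promoter peak, beside 1.32%. Of 68 genes, 1 is close to the latter share, and 13 of the 68 (the let-7 genes and H19) do not encode proteins. Among 12 let-7 genes, 3 had a Mof+/+ peak within 1 kb, against 10.1% of 2202 annotated microRNA genes. The start of a microRNA gene is here that of its annotated entry, and the promoter of the primary transcript was not located. Mirlet7b and Mirlet7c-2 shared 1 peak of fold enrichment 3.10, and Mirlet7i had a peak of 3.86. The clustered Mirlet7a-1, Mirlet7f-1 and Mirlet7d had none that near, but a peak of 7.74 lay within 10 kb. Since clustered genes share peaks, the 12 are not separate observations.

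Of 15 genes for microRNA processing and LIN28 partners, 12 had a Mof+/+ promoter peak. The strongest were at Ddx5 (8.97), which encodes a helicase of the Drosha complex, Tut7 (7.74), a uridylyltransferase that tails precursor let-7, and Dhx9 (7.30), an RNA helicase. Ddx5 was the only gene of the 68 with a Mof+/- promoter peak, of fold enrichment 4.29, and 0 genes had one with protein-coding start sites only or under a q-value limit of 0.001. Peaks were absent within 1 kb at Trim71, itself an oncofetal let-7 target, and at Dis3l2 and Khsrp.

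Of 13 genes of the IGF axis and known IGF2BP targets, 9 had a Mof+/+ promoter peak, led by Actb (8.12), Irs2 (6.38), an insulin receptor substrate, and Cd44 (5.53). The growth factors Igf1 and Igf2, the imprinted H19 and Irs1 were without one. At Igf1r, the IGF receptor, a Mof+/- peak of 3.99 lay 2483 bp from a start site. The m6A machinery, which writes, erases or reads the mark that IGF2BP proteins recognise, had a Mof+/+ promoter peak at 14 of 15 genes, led by the demethylase gene Alkbh5 (5.53), the writer subunit gene Wtap (4.85) and the reader gene Ythdc1 (4.59). Virma was the exception.

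Other fetal growth genes had a Mof+/+ promoter peak at 2 of 6, the zinc finger genes Plag1 (3.96) and Plagl1 (2.51), and none at Sall4, Dlk1, Gpc3 or Afp. Plag1 also had 2 Mof+/- peaks in its window, up to 4.91 and at the nearest 5494 bp from a start site. Of 7 other HMG protein genes, 5 had a Mof+/+ promoter peak, led by Hmgb2 (7.08), Hmgn2 (6.39) and Hmgb1 (4.83).

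**Figure D5:**
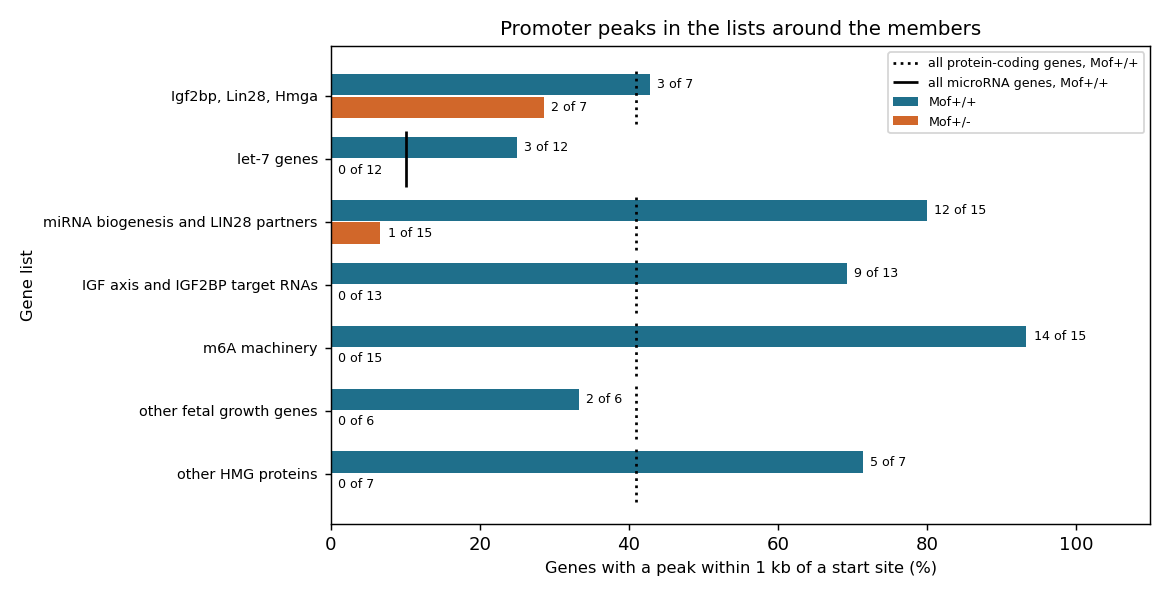
Share of genes with a peak within 1 kb of a start site (percent, counts beside the bars) in Mof+/+ and Mof+/- tissue for the Igf2bp, Lin28 and Hmga genes and for 6 lists around them; the dotted marks are the 41.0% of all protein-coding genes in Mof+/+ and the solid mark on the let-7 bar the 10.1% of all microRNA genes. The Mof+/- bars are at 2 of 7 for the first group and at 1 of 15 for the microRNA processing list, and at 0 for the other lists.

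The window of 10 kb left out a further pair of peaks at Igf2bp3. A Mof+/+ peak at chr6:49226359-49228485 (fold enrichment 10.2) began 11.4 kb from the start and a Mof+/- peak at chr6:49227049-49228371 (8.15) 12.1 kb from it, both with Igf2bp3 as the nearest gene. The farthest peaks kept outside a gene body were the upstream pair at Igf2bp1, 7101 and 7153 bp from a start site, and the Hmga1 peak at AI413582, 7017 bp from one. At the other genes the next peak outside was well past the limit, 28.7 kb away at Igf2bp1, 35.2 kb at Hmga1, 40.5 kb at Lin28a, 78.1 kb at Igf2bp2, 91.6 kb at Lin28b and 249 kb at Hmga2.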

How the data were processed

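MOF ChIP-seq of visceral white adipose tissue was analysed from 1 deposited peak list per genotype, assigned by name. According to the submitters' processing notes and the methods, the authors mapped reads to GRCm38 and called peaks with MACS2 2.1.1.20160309.3 against input at a q-value of 0.1. Whether replicates were pooled is not stated. The deposited fold enrichment is a ratio made by the authors' caller. The −log10 p-value in the deposited lists and the −log10 q-value next to it belong to the same summit, and the summit offset is another deposited value used as a coordinate. In each list 1 score column was not used.

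Coordinates count from 1. Genes came from GENCODE M21 on chromosomes 1 to 19, X and Y, and sequences from RefSeq (GRCm38). Peaks overlapped when sharing 1 bp, and promoter peaks were those no more than 1 kb from a start site. Whole fragments and input background were solved from fold enrichment and p-value (Python 3.11.15, scipy 1.17.1), which succeeded for 99.9% of Mof+/+ and 97.9% of Mof+/- peaks within a tolerance of 0.001 in −log10 p; the solution was tested on simulated data. Intervals are exact 95% Poisson intervals of the fragment counts and hold no other error. Library totals are not given in the sources used here. All members were named, and of the other lists those with a Mof+/- promoter peak or the 3 highest Mof+/+ fold enrichments at the promoter; further genes without a promoter peak, and Igf1r for a Mof+/- peak farther away, were named after their values were seen. The members and lists were chosen with earlier results of these data known. Signal tracks and the H3 and input libraries were not analysed here.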

Additional observations from a re-analysis of the deposited data

How the results depend on the processing

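No paired analysis was possible because the files used here are peak lists without replicate numbers, and no replicate could be left out of them. Of 55 alternatives to the counts, 44 left them within 1.5 times of the value given and 11 moved them. Small counts can fall and stay within that limit. The 3 Mof+/+ peaks that overlapped a Mof+/- peak became 2 under most alternatives, such as a q-value limit of 0.01. The 6 genes with a Mof+/+ peak became 4 under a q-value limit of 0.001. With peaks within 1 kb of a start site only, 3 genes had a Mof+/+ peak, with 3 Mof+/+ and 3 Mof+/- peaks. Under a q-value limit of 0.001, 6 Mof+/+ peaks were left. Mof+/- peaks numbered 2 in gene bodies only, 2 when the nearest start had to be the gene's own and 3 with peaks within 1000 bp merged. The pathway genes with a Mof+/- promoter peak (1, Ddx5) became 2 with a window of 3 kb, 3 with the gene body and 10 kb, 0 with protein-coding starts only and 0 under the q-value limit of 0.001. The number of the 7 genes with a Mof+/- peak was 2 under all 8 alternatives tried for it. Of 28 alternative values of the strongest fold enrichments, 25 were identical and 3 were lower, all at Igf2bp1 in Mof+/- (5.52 to 5.82). No peak was left within 1 kb of a start at Igf2bp2, Lin28b and Hmga2, nor in the gene body of Hmga2, so these have no value.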

Other observations

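The nearest Mof+/- peak was far from each of the 5 genes that had none. For Igf2bp2 the nearest start to that peak was that of Etv5, an ETS factor gene, 260 kb away (fold enrichment 3.46). For Hmga1 it was Nkx2-5, the cardiac homeobox gene, 706 kb away (5.83), and for Lin28b it was Prdm1, which encodes the factor BLIMP1, 942 kb away (6.13). For Lin28a and Hmga2 the nearest were at Gm27619 (4.29) and B4galnt1 (3.68). The nearest Mof+/+ peak to Lin28a, of fold enrichment 6.39, was that at the promoter of Hmgn2, a nucleosome-binding HMG gene. These distances are values of the lists, and no link between the peaks and the distant genes was measured.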
